A study of Mus musculus with 9 samples.

Results

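The comparison of 0.7 MAC sevoflurane with the awake control covered 6 of the 9 RNA sequencing libraries of the series, the 3 titled 0.7 MAC and the 3 titled CTRL, and was described across the 14140 genes tested of 49585 in the table. Doses of inhaled anesthetics are given in MAC (minimum alveolar concentration). All mice were male C57BL/6J of the wildtype genotype, 8 to 15 weeks old. The anesthetized group received sevoflurane at 0.7 MAC over 120 min in 100% oxygen, a state that served as the model of quiet, regular breathing. Control mice moved about for the same 120 min with no sevoflurane, and no source used here says whether they were given oxygen, so the anesthetic and the oxygen cannot be told apart. For its animal experiments the paper also describes tracheal intubation and warming on a heating pad. The part of intubation, warming and lack of movement in the values was not tested. A 2.0 MAC group of 3 libraries (30 min at 2.0 MAC, then 90 min at 0.7 MAC) shared the fit and the same controls, and its values are given beside those of the genes described. The mice were perfused with buffered saline to clear blood from the brain. The labels call the tissue hypothalamus, the methods describe the region left after cortex, cerebellum and olfactory bulb were removed, and the extraction notes speak of whole brain and neurospheres, so the piece of tissue is not settled by these sources. The labels do not tell whether the libraries of a group are from different mice, so p-values measure the spread between these libraries.

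Sevoflurane is a volatile anesthetic that potentiates inhibitory GABA-A and glycine receptors and dampens synaptic excitation. Neurons that fire strongly switch on immediate early genes within minutes, and these include Fos, Arc, Npas4 and the Egr family. Brain endothelial cells have early genes of their own, such as Klf2 and Klf4, which respond to blood flow, and they carry the transporters of the blood-brain barrier. In ribosomal RNA-depleted libraries, reads inside introns come mostly from RNA that is not yet spliced, so they were read beside the exon reads of the same gene.

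Exon reads summed to between 6221872 and 6805725 in the control libraries and between 6145331 and 7178568 in the 0.7 MAC libraries, and introns took 59.54% to 61.14% and 60.15% to 62.24% of the reads. Expression is given below as CPM, exon read counts brought to a common library total, with totals scaled by the trimmed mean of M values (TMM). The 0.7 MAC replicates 1 and 2 stood apart from replicate 3 in transcripts of other tissue. The 17 cerebellar markers summed to 1798 and 3021 CPM in those replicates, against 1138 in replicate 3 and 925 to 1143 in the controls. The 8 blood genes summed to 44.4 and 48.6 CPM, against 5.82 in replicate 3 and 3.62 to 11.1 in the controls. Hypothalamic markers were present at low levels, with control means of 6.13 CPM for Hcrt (orexin), 18.8 for Pmch (melanin-concentrating hormone) and 4.57 for Oxt (oxytocin). Markers of striatum (2786 to 3403 CPM summed over 24 genes in the controls), thalamus (1414 to 1619 over 20) and hindbrain (236 to 319.7 over 24) were present too, so the tissue held more than hypothalamus. In bulk tissue, fewer cells of a type and less RNA per cell cannot be told apart. The 2.0 MAC libraries held less forebrain RNA. Their 23 cortex and hippocampus markers summed to 1271 to 1535 CPM, against 2860 to 3604 at 0.7 MAC. Their 24 striatal markers summed to 1441 to 1577 CPM, against 2234 to 3387. The part of tissue in the differences between 2.0 and 0.7 MAC given below was not tested.

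At an adjusted p under 0.05 and a fold of at least 2, the thresholds of the study, 39 genes were upregulated at 0.7 MAC (0.276% of those tested) and 7 were downregulated (0.0495%). Without the fold threshold, 125 genes were upregulated (0.884%) and 105 downregulated (0.743%), together 1.63% (edgeR, quasi-likelihood F-test, with p-values adjusted after Benjamini and Hochberg over all 14140 genes). An unadjusted p under 0.05 was reached by 1157 genes that were higher (8.18%) and 1030 that were lower (7.28%), and the median log2 fold change over all tested genes was -0.0027. The control and 0.7 MAC values did not overlap in 121 of the 125 upregulated and in all 105 downregulated genes, while 8.8% of all tested genes were higher and 9.25% lower without overlap. These counts depended on single libraries: at any fold they were 30 and 20 without 0.7 MAC replicate 1, 58 and 28 without replicate 2, and 306 and 224 without replicate 3. They were 33 and 20 without CTRL replicate 3, 52 and 43 without CTRL replicate 2, and 226 and 174 without CTRL replicate 1. At least 2-fold, 18 to 22 genes were upregulated without any 1 of CTRL replicates 2 and 3 and 0.7 MAC replicates 1 and 2, and 94 without 0.7 MAC replicate 3, while 3 or 4 were downregulated without 0.7 MAC replicate 2 or 1 and 11 without CTRL replicate 1. Without 0.7 MAC replicates 1 and 2 together, which leaves 1 library assumed to vary like the others, 26 genes were upregulated and 3 downregulated.

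**Figure D1:**
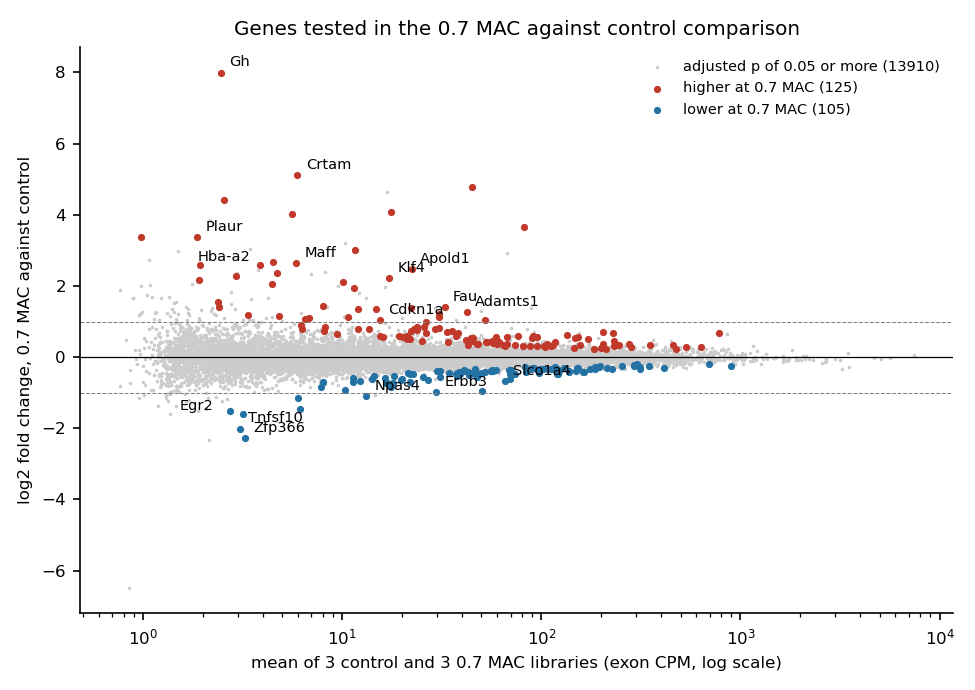
Log2 fold change of 0.7 MAC against control (y axis) against the mean exon CPM of the 6 libraries (x axis, log scale) for the 14140 tested genes; red points are the 125 upregulated and blue points the 105 downregulated genes, and dashed lines mark a 2-fold change. Klf4, Apold1 and Adamts1 stand above the 2-fold line with Gh and Crtam at the top, and Zfp366, Tnfsf10 and Egr2 stand below the lower one.

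Several early-response genes known from blood vessel walls rose in exons. Of the 23 genes listed for the vascular early response, 19 were tested, 6 rose (Klf2, Klf4, Apold1, Adamts1, Adamts9 and Cyr61) and 0 fell, beside 0.884% and 0.743% of all tested genes. The median log2 fold change was 0.42 beside -0.0027 over all tested genes. All 6 were called by exon reads whichever library was left out, while the median was 0.23 without CTRL replicate 2. In introns 2 of 12 listed genes rose and 0 fell, beside 2.24% and 3.19% of all genes tested by intron reads. Adamts9 passed the intron test (1.48, adjusted p = 0.001). Klf4 (1.18, adjusted p = 0.071), Klf2 (0.37, 0.64), Apold1 (0.29, 0.82) and Adamts1 (0.65, 0.34) did not. Klf4, a zinc finger transcription factor of endothelium, stood at 7.54, 5.98 and 4.72 CPM in the controls and at 21.3, 28.0 and 35.5 at 0.7 MAC. The 3 anesthetized libraries thus lay well clear of the controls, a 4.66-fold rise (log2 fold change 2.22 ± 0.19 SE, adjusted p = 2.9e-05). Klf2, its flow-responsive relative, was 7.37, 9.92 and 7.67 CPM in the controls and 18.4, 19.7 and 25.9 at 0.7 MAC (log2 fold change 1.35 ± 0.18, adjusted p = 0.0011). Apold1, an endothelial early-response protein, went from 7.70, 6.61 and 6.20 to 27.7, 32.9 and 52.7 CPM (2.46 ± 0.27, adjusted p = 0.00016). The groups did not overlap in Klf2 or Apold1, which the rule for the 12 highest required of Apold1. Replicate 3 was the highest of the 0.7 MAC libraries in all 3 genes.

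Adamts1, Adamts9 and Cyr61 are the other members of that list that rose, and Epha2, Maff and Plaur, outside it, are among the 12 genes with the highest log2 fold changes. Adamts1, a secreted metalloproteinase, was between 24.4 and 25.8 CPM in the controls and at 54.2, 58.0 and 66.6 at 0.7 MAC. The rise was 2.39-fold (log2 1.25 ± 0.09), with an adjusted p of 5.7e-06. Adamts9 of the same family rose from 13.8, 12.6 and 10.6 to 29.0, 27.7 and 39.8 CPM (1.39 ± 0.14, adjusted p = 0.00015). Cyr61, a matricellular protein now also called Ccn1, rose from 4.59, 5.98 and 3.69 to 18.7, 18.6 and 17.5 CPM (1.94 ± 0.23, adjusted p = 0.00045). None of the 3 genes overlapped between the groups. Epha2, an ephrin receptor tyrosine kinase, was flat in the controls at 1.47, 1.57 and 1.48 CPM and reached 6.69, 7.34 and 9.65 (2.37 ± 0.23, adjusted p = 0.00011). Maff, a small Maf transcription factor, rose from 1.80, 0.944 and 2.07 to 8.496, 8.15 and 13.6 CPM (2.63 ± 0.28, adjusted p = 0.00016). Plaur, the urokinase receptor, rested on few reads: 1, 2 and 3 in the controls and 14, 24 and 29 at 0.7 MAC (3.37 ± 0.51, adjusted p = 0.0029). In introns Epha2 (2.15, adjusted p = 0.0021) and Plaur (2.75, adjusted p = 0.00026) rose too, while Maff (0.81, adjusted p = 0.093) did not pass the test.

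Endothelial genes outside the list rose as well and were named after their values were seen. Ctla2a, a cysteine protease inhibitor, rose 4.13-fold (adjusted p = 0.0021), Lrrc32, a receptor that anchors latent TGF-beta, 2.71-fold (adjusted p = 0.002), and Tinagl1, a matricellular glycoprotein, 2.20-fold (adjusted p = 0.0043). Adgrl4, an adhesion G protein-coupled receptor of endothelium, was 23.1, 30.4 and 26.6 CPM in the controls and 47.6, 40.6 and 44.6 at 0.7 MAC (log2 fold change 0.73 ± 0.10, adjusted p = 0.002). Of the 12 genes from Klf4 to Adgrl4 named in these paragraphs other than Plaur, 11 kept an adjusted p under 0.05 in every alternative in which they were tested (Ctla2a was not at a minimum count of 50), also without 0.7 MAC replicates 1 and 2 together, and Tinagl1 lost it in that last fit alone (adjusted p = 0.149). Plaur lost it on log2 RPKM with a pseudocount of 1. In the 2.0 MAC group, which shares the controls, Klf4 was at 34.7, 30.3 and 30.5 CPM, Adamts1 at 62.3, 60.5 and 68.5 and Epha2 at 10.2, 10.7 and 10.2. The direct test of 2.0 against 0.7 MAC, which called 14.7% of all tested genes, gave log2 differences of 0.17 ± 0.15 for Klf4 (adjusted p = 0.52), 0.10 ± 0.08 for Adamts1 (adjusted p = 0.5) and 0.39 ± 0.17 for Epha2 (adjusted p = 0.14), and none of the 3 passed the test at this depth.

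The starts of 4 of these genes are shown, chosen because each held the short form of the cAMP response element or more of it. The 4 sequences below are the 250 bases before the RefSeq start of each gene on GRCm38.p6, written along the gene, given for Klf2 (chr8:72318812-72319061, plus strand), Epha2 (chr4:141300971-141301220, plus strand), Maff (chr15:79347270-79347519, plus strand) and Adamts1 (chr16:85803114-85803363, minus strand). Capitals mark TGACG or its reverse complement CGTCA, the short form of the cAMP response element, and in Klf2 also a MEF2 consensus match.
Klf2: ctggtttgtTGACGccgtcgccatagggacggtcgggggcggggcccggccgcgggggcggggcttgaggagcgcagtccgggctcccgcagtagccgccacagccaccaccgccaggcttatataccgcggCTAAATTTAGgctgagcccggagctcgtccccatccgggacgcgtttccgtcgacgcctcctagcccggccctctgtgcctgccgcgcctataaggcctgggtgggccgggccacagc
Epha2: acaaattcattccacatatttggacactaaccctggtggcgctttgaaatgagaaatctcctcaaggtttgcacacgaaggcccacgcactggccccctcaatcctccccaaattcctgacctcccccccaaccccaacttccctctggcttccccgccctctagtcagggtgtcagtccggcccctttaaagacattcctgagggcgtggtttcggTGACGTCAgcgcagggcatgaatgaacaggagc
Maff: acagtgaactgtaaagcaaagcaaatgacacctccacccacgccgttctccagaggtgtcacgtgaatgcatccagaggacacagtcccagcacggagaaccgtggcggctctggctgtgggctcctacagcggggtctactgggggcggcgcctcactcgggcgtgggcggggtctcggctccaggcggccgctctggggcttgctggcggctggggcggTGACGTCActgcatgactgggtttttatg
Adamts1: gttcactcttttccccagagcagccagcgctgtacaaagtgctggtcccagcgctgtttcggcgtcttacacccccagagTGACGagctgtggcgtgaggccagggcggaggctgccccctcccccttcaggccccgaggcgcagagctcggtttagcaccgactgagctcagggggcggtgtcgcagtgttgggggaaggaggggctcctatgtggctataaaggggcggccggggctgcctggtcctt
The full palindrome TGACGTCA ended 26 bases before the start in Epha2 and 22 bases before it in Maff. Both strands were searched, and the palindrome contains both short forms. Of the 10750 tested genes with a RefSeq window, 26.9% held the short form, 2.85% the palindrome and 0.977% a MEF2 match in the same 250 bases. Of the 13 genes described from Klf4 to Adgrl4, 12 had a window, of which 9 held the short form, 2 the palindrome, and 3 (Plaur, Tinagl1 and Adgrl4) neither. These 13 genes were described because they rose, some after their values were seen. Their count does not measure how common the letters are among upregulated genes. A match is a run of letters and was not tested as a binding site.

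**Figure D2:**
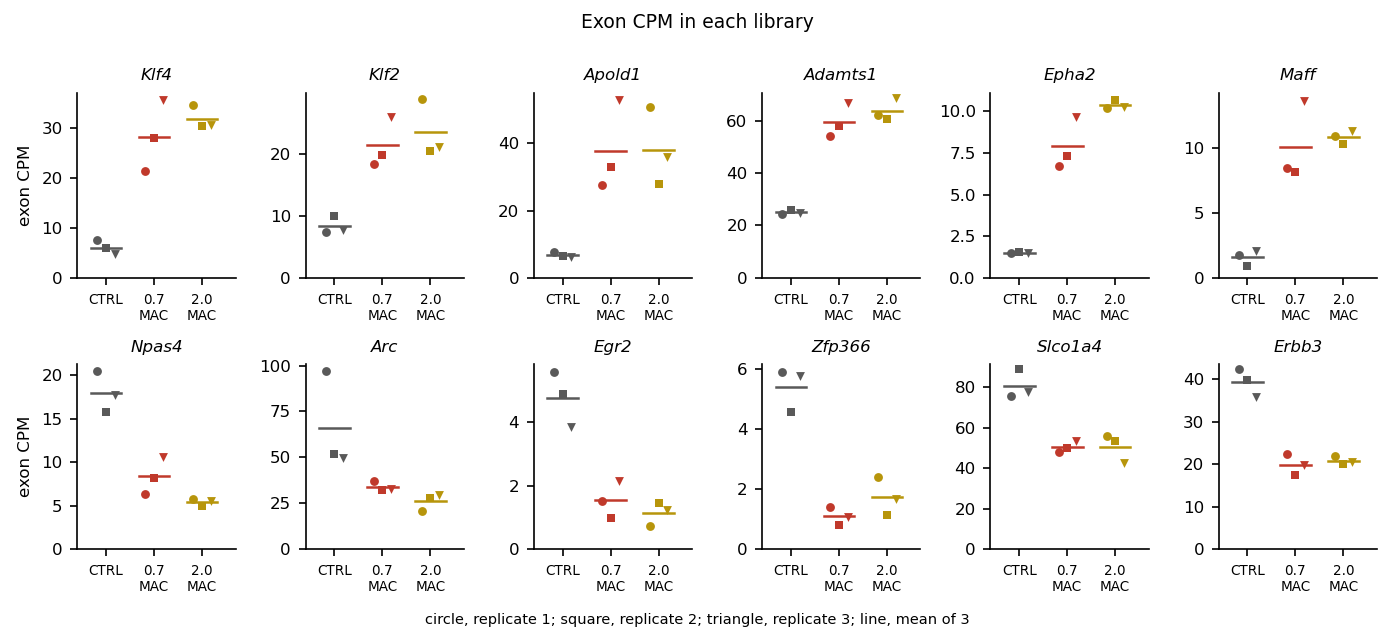
Exon CPM of 12 genes in each of the 9 libraries, with CTRL in gray, 0.7 MAC in red and 2.0 MAC in ochre, marker shapes for replicates 1 to 3 and lines for the mean of 3. The upper row holds early-response genes that rose at 0.7 MAC and the lower row genes that fell, and in none of the 12 did the CTRL and 0.7 MAC libraries overlap. The naming rule required this of those among the 12 highest or 12 lowest.

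Of 20 endothelial markers tested, 4 fell (Slco1a4, Abcb1a, Tie1 and Itm2a) and 0 rose, with a median of -0.23, beside 0.743% and 0.884% of all tested genes. The first 2 are transporters, and both had larger log2 fold changes in intron reads. Slco1a4, an organic anion transporter of the blood-brain barrier, was at 75.5, 88.9 and 77.5 CPM in the controls and at 47.9, 50.05 and 53.5 at 0.7 MAC (log2 fold change -0.68 ± 0.10, adjusted p = 0.002). In introns, where levels are CPM of intron reads, it fell from 100.4, 117.6 and 108.3 to 29.7, 21.8 and 16.3. The lowest control lay far above the highest 0.7 MAC library (log2 fold change -2.26 ± 0.17, adjusted p = 1.1e-05). Abcb1a, which encodes the drug efflux pump P-glycoprotein, fell from 30.1, 29.3 and 27.4 to 13.3, 8.83 and 8.87 in introns (-1.48 ± 0.17, adjusted p = 0.00015) and by 0.41 on the log2 scale in exons (adjusted p = 0.038).

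Further vessel genes, named after their values were seen except Rgs5, fell in introns. Slco1c1, a thyroid hormone transporter of the barrier, went from 54.0, 56.3 and 55.2 to 31.1, 27.1 and 29.9 (-0.91 ± 0.08, adjusted p = 1.8e-05). Vwf, von Willebrand factor, went from 13.3, 11.9 and 10.8 to 6.02, 4.67 and 4.00 (-1.28 ± 0.16, adjusted p = 0.00035). Rgs5, a regulator of G protein signaling typical of pericytes, fell from 70, 58 and 50 intron reads to 19, 9 and 16 (-2.08 ± 0.25, adjusted p = 0.00025), while its exon level of 139 to 155 CPM in the controls and 130 to 133 at 0.7 MAC did not pass the test (-0.16, adjusted p = 0.16). The intron calls of Slco1a4, Abcb1a, Slco1c1, Vwf and Rgs5 were kept in every intron alternative, including each of the 6 libraries left out in turn. Of 16 endothelial markers tested by intron reads, 6 fell and 3 rose, beside 3.19% and 2.24% of the 15031 genes tested. The 3 that rose were Pecam1 (0.57), Cdh5 (0.86) and Esam (0.97), which encode adhesion molecules of endothelial junctions, and the Pecam1 call was lost without CTRL replicate 1 (adjusted p = 0.0506) or 0.7 MAC replicate 1 (0.0649). Adgrl4 rose in introns from 32.9, 48.5 and 41.3 to 118, 92.1 and 108 (1.38 ± 0.12, adjusted p = 1.8e-05), a call kept in every intron alternative. Anxa3, an annexin (1.13 ± 0.14, adjusted p = 0.00025), and Nostrin, which binds endothelial nitric oxide synthase (1.30 ± 0.16, adjusted p = 0.00026), also rose in introns, as seen after their values were known.

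Exon calls among the vascular genes that fell depended on single libraries: 1 endothelial marker was called without CTRL replicate 3 or 0.7 MAC replicate 1 or 2, and 0 without the last pair together. Tie1, an endothelial receptor tyrosine kinase (-0.67, adjusted p = 0.028), lost its call without CTRL replicate 3 (adjusted p = 0.152), 0.7 MAC replicate 1 (0.0867) or replicate 2 (0.0667). The Abcb1a exon call was lost without any 1 of CTRL replicates 2 and 3 and 0.7 MAC replicates 1 and 2, with an adjusted p of up to 0.192. Slco1a4 lost its exon call only without 0.7 MAC replicates 1 and 2 together (adjusted p = 0.0823). Acta2, smooth muscle actin, fell from 13.6, 14.2 and 12.8 to 5.99, 6.68 and 8.73 CPM (-0.92 ± 0.17, adjusted p = 0.011), and the call was lost without 0.7 MAC replicate 1 (adjusted p = 0.0676). The summed CPM of the 20 endothelial markers was 466 to 518 at 0.7 MAC and 562 to 586 in the controls, and of 15 pericyte and smooth muscle markers 343 to 353 against 392.4 to 405. The part of vessel cell number in these changes was not tested. At 2.0 MAC, Slco1a4 was at 55.8, 53.3 and 42.7 exon CPM and 30.6, 41.4 and 26.3 in introns, and the intron difference from 0.7 MAC did not pass the test (adjusted p = 0.091, with 8.09% of intron-tested genes called).

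Among the 12 genes that fell most were several of low expression. Zfp366, a zinc finger corepressor, fell from 5.90, 4.57 and 5.76 CPM to 1.39, 0.815 and 1.07, a 4.82-fold drop (log2 -2.27 ± 0.31, adjusted p = 0.0014), and its introns fell from 24.4, 22.1 and 18.4 to 5.83, 5.89 and 4.29 (-2.02 ± 0.19, adjusted p = 3.8e-05). Tnfsf10, the death ligand TRAIL, fell from 4.42, 4.72 and 5.61 to 1.25, 0.978 and 1.38 CPM (-2.01 ± 0.28, adjusted p = 0.002). Rnd3, an atypical small GTPase, fell from 24.6, 23.8 and 19.3 to 13.4, 10.3 and 14.1 CPM (-0.83 ± 0.13, adjusted p = 0.0056). Groups did not overlap in any of the 3, as the rule for the 12 lowest required. Their exon calls were kept in every alternative in which they were tested, other than the fit without 0.7 MAC replicates 1 and 2 together. That fit leaves 1 library of the group and gave log2 fold changes of -2.32, -1.83 and -0.68. Grap, an adaptor protein gene whose end overlaps Slc5a10 (-1.50, adjusted p = 0.025), Clec2d, a C-type lectin (-1.16, adjusted p = 0.037), and Gcnt4, a glycosyltransferase (-0.84, adjusted p = 0.025), were among these 12 as well, and each of these 3 calls was lost in at least 4 of the 6 fits that left out 1 of the 6 libraries.

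Neuronal activity genes moved in both directions. Of 25 early-response transcription factors tested, 7 rose (Maff, Klf4, Klf2, Nr4a3, Fosl2, Nr4a2 and Klf6) and 2 fell (Npas4 and Egr2), with a median of 0.30. Of all tested genes 0.884% rose and 0.743% fell. Klf2 and Klf4 also belong to the vascular list, and bulk libraries do not separate vessel from neuron. The number that rose was 4 without 0.7 MAC replicate 1, and the median was 0.17 without CTRL replicate 2 or 0.7 MAC replicate 3. Npas4, a transcription factor induced by calcium entry in neurons, was 20.5, 15.7 and 17.7 CPM in the controls and 6.41, 8.15 and 10.6 at 0.7 MAC. The groups did not overlap, as the rule for the 12 lowest required, and the fall was 2.15-fold (log2 fold change -1.10 ± 0.17, adjusted p = 0.0035). Its intron reads fell from 38, 14 and 68 to 9, 8 and 4 (-2.56 ± 0.50, adjusted p = 0.008). Arc, a synaptic protein of active neurons, was 97.0, 52.1 and 49.7 CPM in the controls and 37.3, 32.4 and 32.8 at 0.7 MAC (-0.95 ± 0.20, adjusted p = 0.025). Egr2, a zinc finger factor, fell from 5.57, 4.88 and 3.84 to 1.53, 0.978 and 2.15 CPM (-1.59 ± 0.31, adjusted p = 0.018). CTRL replicate 1 was the highest of the 6 libraries in each of the 3 genes. The Arc call was lost with DESeq2, with dispersions estimated robustly against outlying genes, with limma on either RPKM scale and without 0.7 MAC replicate 1 (adjusted p = 0.0752) or 2 (0.0646). The Egr2 call was lost without CTRL replicate 2 (0.0592), 0.7 MAC replicate 1 (0.0809) or 2 (0.0629), and the Npas4 exon call only without 0.7 MAC replicates 1 and 2 together (0.156).

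The window before the Npas4 start (chr19:4989972-4990221, minus strand) is shown because Npas4 carried the short cAMP response element in both orientations while it fell, with the same capitals as above.
Npas4: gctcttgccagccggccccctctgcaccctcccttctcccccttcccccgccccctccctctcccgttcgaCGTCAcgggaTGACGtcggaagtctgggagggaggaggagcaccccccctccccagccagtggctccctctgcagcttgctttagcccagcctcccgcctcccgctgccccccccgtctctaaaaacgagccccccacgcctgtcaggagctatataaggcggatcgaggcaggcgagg
Klf2 and Adamts1, which rose, held the same letters, as did 26.9% of all windows.

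In classic activity markers, named after their values were seen, exon and intron reads differed. Fos exon levels were 24.2, 25.8 and 19.8 CPM in the controls and 21.3, 15.2 and 19.9 at 0.7 MAC, with groups that overlapped (-0.30 ± 0.14, adjusted p = 0.3). Its intron reads, however, numbered 11, 14 and 19 in the controls and 0, 3 and 1 at 0.7 MAC (-3.40 ± 0.57, adjusted p = 0.0029). Nr4a1, an orphan nuclear receptor induced by activity, was at 41.6, 22.4 and 18.4 exon CPM in the controls and 30.9, 35.2 and 34.6 at 0.7 MAC (0.30 ± 0.22, adjusted p = 0.57). Its introns fell from 22.4, 16.5 and 17.5 to 5.00, 5.28 and 7.89 (-1.63 ± 0.19, adjusted p = 0.00021). The intron calls of Fos, Nr4a1 and Npas4 were kept in every intron alternative in which they were tested, which for Fos and Npas4 leaves out the minimum count of 50. Egr1 exons were 99.8, 64.2 and 70.8 CPM in the controls and 58.5, 53.6 and 62.5 at 0.7 MAC (-0.42 ± 0.14, adjusted p = 0.13). The Egr1 groups did not overlap. Of 18 early-response factors tested by intron reads, 4 fell, the fourth being Btg2, an antiproliferative early gene (-1.62, adjusted p = 0.038), and 0 rose. Over all 15031 genes tested by intron reads 3.19% fell and 2.24% rose. The Btg2 call was lost in 5 of the 6 fits without 1 of the 6 libraries.

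Other activity-linked factors rose in exons. Fosl2, an AP-1 subunit, was 44.6, 31.0 and 26.7 CPM in the controls and 68.8, 67.3 and 73.1 at 0.7 MAC (1.04 ± 0.13, adjusted p = 0.00065). Sik1, a salt-inducible kinase, rose from 29.3, 31.5 and 26.9 to 41.6, 48.3 and 51.8 CPM (0.69 ± 0.10, adjusted p = 0.0021). Both calls were kept in every alternative. Nr4a3, a nuclear receptor of the same family as Nr4a1, rose from 26.5, 20.5 and 10.6 to 49.3, 32.6 and 43.0 CPM (1.14 ± 0.22, adjusted p = 0.018) and Nr4a2, also of that family, from 29.0, 13.7 and 23.6 to 42.6, 33.6 and 41.2 (0.83 ± 0.18, adjusted p = 0.027). The Nr4a3 call was lost with DESeq2 and without CTRL replicate 3 (adjusted p = 0.0668) or 0.7 MAC replicate 1 (0.088), and the Nr4a2 call without CTRL replicate 2 (0.0541), CTRL replicate 3 (0.108) or 0.7 MAC replicate 1 (0.114). In introns, Fosl2 (-0.30, adjusted p = 0.32), Nr4a3 (-0.70, adjusted p = 0.1) and Nr4a2 (0.06, adjusted p = 0.9) did not pass the test. At 2.0 MAC these factors were lower than at 0.7 MAC by the direct test: Fosl2 at 37.6, 40.7 and 44.5 CPM (-0.76, adjusted p = 0.00064), Nr4a3 at 14.8, 20.98 and 21.4 (-1.12, adjusted p = 0.0022) and Nr4a2 at 12.6, 11.8 and 14.6 (-1.58, adjusted p = 4.1e-05). For Npas4, Arc and Egr2 that test was not passed (adjusted p = 0.053, 0.29 and 0.57), with 2.0 MAC levels of 5.00 to 5.75, 20.96 to 29.6 and 0.742 to 1.45 CPM. Cortical and striatal markers were also lower at 2.0 than at 0.7 MAC, as given above. The part of tissue in these differences was not tested.

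Of 20 activity-regulated effectors, 3 rose (Sik1, Nptx1 and Gadd45g) and 2 fell (Arc and Scg2), with a median of 0.16, beside 0.884% and 0.743% of all tested genes. Without 0.7 MAC replicate 1 or 2 it was 1 effector that rose and 0 that fell. Nptx1, a secreted protein that clusters AMPA receptors, was 212, 164 and 154 CPM in the controls and 276, 316 and 255 at 0.7 MAC (0.68 ± 0.13, adjusted p = 0.016), and 131, 143 and 194 at 2.0 MAC. Neurod2 and Prdm8, transcriptional regulators of cortical neurons, rose too. Neurod2 was 25.2, 12.1 and 18.1 CPM in the controls and 44.9, 46.3 and 36.9 at 0.7 MAC (1.21 ± 0.25, adjusted p = 0.024). Prdm8 was 7.37, 8.66 and 4.28 CPM in the controls and 17.4, 16.6 and 17.6 at 0.7 MAC (1.35 ± 0.23, adjusted p = 0.0088). The groups did not overlap in these 3 genes. Nptx1 and Neurod2 lost their calls in 4 of the 6 fits that left out 1 of the 6 libraries (CTRL replicate 2 or 3, 0.7 MAC replicate 1 or 2, with an adjusted p of at most 0.114 and 0.136), and Prdm8 without CTRL replicate 3 (0.0604). The 23 markers of cortex and hippocampus summed to 2860 to 3604 CPM at 0.7 MAC and 2190 to 3180 in the controls, with 2 of 22 higher (Neurod2 and Etv1) and a median of 0.30. Without CTRL replicate 1, 8 were higher, and 0 were higher without CTRL replicate 3 or 0.7 MAC replicate 1 or 2. The part of tissue from cortex in these changes was not tested.

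Genes known to be induced by glucocorticoids were mostly higher. Of 21 tested, 5 rose (Cdkn1a, Fkbp5, Nfkbia, Per1 and Arrdc2), 0 fell, and 20 had a positive log2 fold change, with a median of 0.32. Over all tested genes 0.884% rose, 0.743% fell and the median was -0.0027. The number that rose was 1 without CTRL replicate 3 or 0.7 MAC replicate 1 and 3 without CTRL replicate 1 or 0.7 MAC replicate 2. Cdkn1a, the cell cycle inhibitor p21, was 10.3, 9.76 and 10.04 CPM in the controls and 18.7, 20.5 and 23.1 at 0.7 MAC (1.05 ± 0.12, adjusted p = 0.00036), a call kept in every exon alternative. Fkbp5, a co-chaperone of the glucocorticoid receptor, rose from 34.2, 39.8 and 37.0 to 54.2, 50.9 and 55.8 CPM (0.53 ± 0.10, adjusted p = 0.014). Its introns rose from 40.3, 68.7 and 60.4 to 108, 100.1 and 107 (0.89 ± 0.15, adjusted p = 0.0035), a call kept in every intron alternative, while the exon call was lost without CTRL replicate 3 (adjusted p = 0.0704) or 0.7 MAC replicate 1 (0.059). Per1, a clock gene that glucocorticoids also induce, was the only gene called in opposite directions by the 2 kinds of reads, at 0.32 in exons (adjusted p = 0.042) and -0.40 in introns (adjusted p = 0.046). The exon calls of Per1, Nfkbia and Arrdc2 were each lost in at least 5 of the 6 fits without 1 of the 6 libraries, and the Per1 intron call in 4. Cdkn1a was at 24.7, 24.4 and 27.1 CPM at 2.0 MAC and Fkbp5 at 57.1, 44.1 and 45.8, and neither differed from 0.7 MAC in the direct test (adjusted p = 0.079 and 0.41).

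Each list of stress genes gave 0 or 1 call in exons. Of 22 genes of the unfolded protein and integrated stress response, 21 targets of hypoxia-inducible factor and 18 oxidative stress and metallothionein genes, 0 passed the exon test, with medians of 0.09, 0.02 and -0.07. By edgeR at an unadjusted p under 0.05, 4 of these 61 genes were higher and 8 lower, beside 8.18% and 7.28% of all tested genes. DESeq2 called 0. In introns 2 of 21 hypoxia targets and 1 of 13 oxidative stress genes fell, and 0 genes of these 3 lists rose. Over all genes tested by intron reads 3.19% fell and 2.24% rose. Of 20 heat shock chaperones, 1 rose, Hspa1b, an inducible HSP70, from 1.47, 0.944 and 1.48 to 3.20, 3.26 and 3.98 CPM (adjusted p = 0.025), a call lost with DESeq2 and without CTRL replicate 2 (adjusted p = 0.112) or 3 (0.094) or 0.7 MAC replicate 1 (0.0715) or 2 (0.0575). Of 12 cytokine and acute inflammation genes 1 rose, Nfkbia, an inhibitor of NF-kappaB. Of 12 feedback inhibitors of MAP kinase signaling 1 rose, the phosphatase Dusp1 (0.70, adjusted p = 0.03), and 1 fell, Spry2 (-0.48, adjusted p = 0.022). Over all tested genes 0.884% rose and 0.743% fell in exons. In introns 1 of 17 heat shock chaperones and 1 of 6 cytokine and inflammation genes rose, and 0 of either fell. Of 12 MAP kinase feedback inhibitors 0 rose and 2 fell in introns. The Dusp1 call was lost without CTRL replicate 2 (adjusted p = 0.081) or 3 (0.15) or 0.7 MAC replicate 2 (0.0574), and the Spry2 call without 0.7 MAC replicate 1 (0.103).

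Oligodendrocyte transcripts were lower. All 19 markers tested had a negative log2 fold change, with a median of -0.32, and 7 fell: Ugt8a, Gjc3, Trf, Mag, Mog, Ermn and Aspa. Over all tested genes 0.743% fell and the median was -0.0027. Ugt8a, which makes the myelin lipid galactosylceramide, was 182, 198 and 183 CPM in the controls and 144, 141 and 138 at 0.7 MAC (-0.41 ± 0.07, adjusted p = 0.0066). In introns it fell from 110, 101 and 86.2 to 50.4, 41.5 and 47.2 (-1.09 ± 0.10, adjusted p = 2.8e-05). Erbb3, the neuregulin receptor of this lineage, was not in the list and fell from 42.3, 39.8 and 35.9 to 22.3, 17.4 and 19.8 CPM (-0.98 ± 0.10, adjusted p = 0.00015), a call kept in every alternative. Its introns fell by 1.93 on the log2 scale (adjusted p = 0.0001). Sox10, the lineage's master transcription factor, fell from 55.4, 55.9 and 58.1 to 39.6, 34.2 and 40.6 CPM (-0.56 ± 0.10, adjusted p = 0.011), and the call was lost without CTRL replicate 3 (adjusted p = 0.0623). Groups did not overlap in these 3 genes, which the rule for the 12 lowest required of Erbb3.

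The number of oligodendrocyte markers called depended on the libraries. It was 0 without 0.7 MAC replicates 1 and 2 together, 1 without CTRL replicate 2 or 3, 3 without 0.7 MAC replicate 1 or 2 and 12 without CTRL replicate 1 or 0.7 MAC replicate 3, and the median lay between -0.39 and -0.27 in these fits. The 19 markers summed to 8212 to 9674 CPM at 0.7 MAC, 10199 to 11705 in the controls and 11070 to 13357 at 2.0 MAC, so the 0.7 MAC libraries were the lowest of the 9. Ugt8a was higher at 2.0 than at 0.7 MAC by the direct test (0.51, adjusted p = 9.4e-05), as was Mag (0.53, adjusted p = 4.8e-05), whereas Erbb3 was not (20.01 to 21.9 CPM at 2.0 MAC, adjusted p = 0.8). Of 17 astrocyte markers 0 passed the exon test with edgeR or DESeq2 (2 higher and 3 lower by unadjusted p under 0.05), with a median of -0.07. In introns 1 of 14 astrocyte markers rose and 0 fell, with a median of -0.30. Over all genes tested by intron reads 2.24% rose and 3.19% fell. The next 2 genes are outside that list. Slc6a11, the astrocytic GABA transporter GAT-3, fell in introns from 146, 168 and 151 to 87.2, 67.4 and 80.01 (-0.99 ± 0.09, adjusted p = 3.7e-05), and Kcnj10, the potassium channel Kir4.1, from 30.8, 39.7 and 42.3 to 18.98, 20.3 and 20.8 (-0.91 ± 0.11, adjusted p = 0.00025), both named after their values were seen. Slc6a11 also fell in exons (-0.31, adjusted p = 0.035), a call lost without any 1 of CTRL replicates 2 and 3 and 0.7 MAC replicates 1 and 2 (adjusted p of up to 0.166), and Kcnj10 did not pass the exon test (adjusted p = 0.057).

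A few markers of brain regions were lower. Medians were -0.27 for 20 thalamic and habenular genes (3 fell), -0.26 for 24 striatal genes (2 fell), -0.35 for 13 midbrain genes (1 fell) and -0.35 for 13 hindbrain genes (1 fell), and 0 genes of these 4 lists rose. Of all tested genes 0.743% fell and 0.884% rose, with a median of -0.0027. Without CTRL replicate 2 or 3 or 0.7 MAC replicate 1 or 2, 0 midbrain and 0 hindbrain genes fell. Of 14 genes of monoamine, histamine and acetylcholine neurons 1 fell, the dopamine transporter Slc6a3 (-0.47, adjusted p = 0.038), with a median of -0.35. It is also the midbrain gene that fell, and its call was lost with DESeq2 and without any 1 of CTRL replicates 2 and 3 and the 3 0.7 MAC libraries (adjusted p of 0.0524 to 0.155), while 4 genes of this list fell without CTRL replicate 1. Without 0.7 MAC replicate 3, 12 striatal genes fell, without CTRL replicate 3 or 0.7 MAC replicate 1 or 2 it was 0, and without 0.7 MAC replicates 1 and 2 together the striatal median was 0.09. Thalamic falls numbered 6 without CTRL replicate 1 and 0 without CTRL replicate 2 or 3. The hindbrain genes summed to 215 to 225 CPM at 0.7 MAC and 236 to 319.7 in the controls, without overlap, whereas the groups overlapped in the striatal sums (2234 to 3387 against 2786 to 3403) and in the midbrain sums (175 to 217 against 189 to 238). Slc17a6, the vesicular glutamate transporter of subcortical neurons, fell in introns from 30.4, 37.9 and 35.3 to 21.8, 22.8 and 26.0 (-0.55 ± 0.10, adjusted p = 0.0042), and the summed thalamic markers were 1306 to 1400 CPM against 1414 to 1619. How far the piece of tissue taken set the oligodendrocyte and regional values was not tested.

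**Figure D3:**
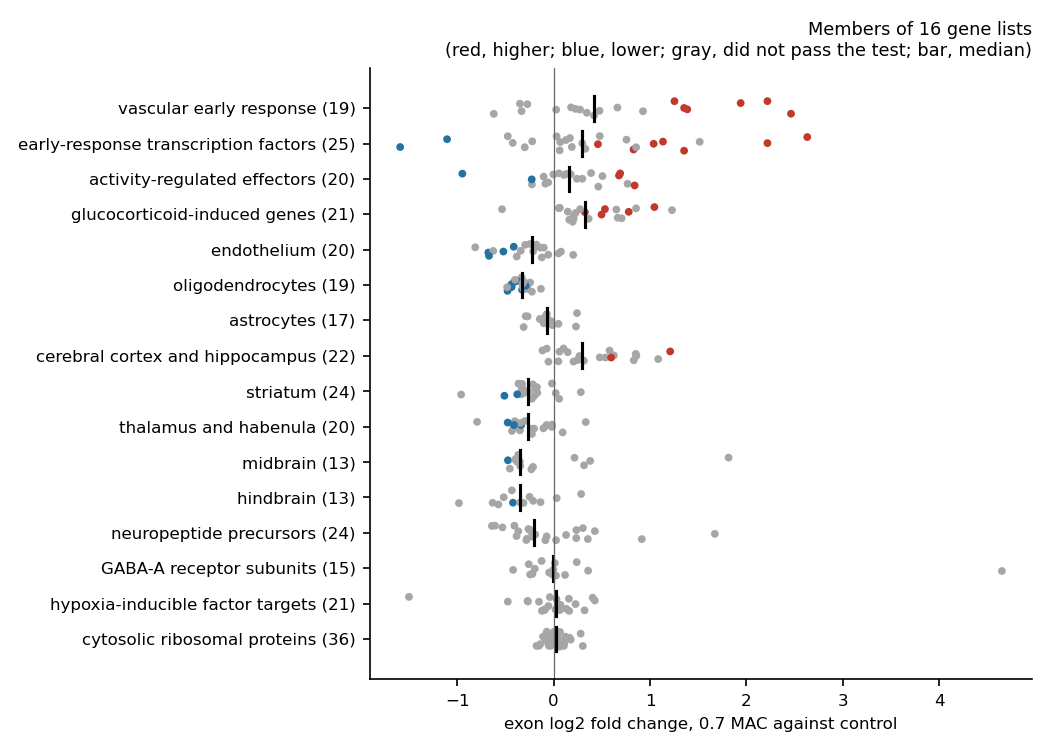
Exon log2 fold changes of 0.7 MAC against control (x axis) for the tested members of 16 gene lists (rows, with the number tested), where red points rose, blue points fell, gray points did not pass the test and bars mark medians. The vascular list reached 2.46 with Apold1, all 19 oligodendrocyte markers lay below 0, and the ribosomal proteins clustered around 0.03.

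Each list of the anesthetic's known targets gave 0 or 1 call in exons by edgeR. Of 15 GABA-A receptor subunits, 11 NMDA and AMPA receptor subunits, 9 two-pore potassium channels and 17 pacemaker, leak and sodium channels, 0 passed the exon test, with medians of -0.01, 0.13, -0.01 and -0.07. At an unadjusted p under 0.05, 10 of these 52 genes were higher and 11 lower, beside 8.18% and 7.28% of all tested genes, and DESeq2 called 1, a channel of the last list, lower. In introns 1 of 14 GABA-A subunits rose, the cerebellar gene Gabra6, and 2 fell. Of 10 NMDA and AMPA subunits 1 rose and 1 fell, and 1 of 11 two-pore channels and 2 of 7 glycine receptor and transporter genes fell. Over all genes tested by intron reads 2.24% rose and 3.19% fell. In exons 1 of 8 glycine receptor and transporter genes fell, Slc6a5, the neuronal glycine transporter (-0.42, adjusted p = 0.037). Of 24 synaptic vesicle genes 1 fell, Sv2c (-0.20, adjusted p = 0.042), beside 0.743% of all tested genes. Slc6a5 is also the hindbrain gene that fell. Both calls were lost with the 6 libraries alone and without any 1 of CTRL replicates 2 and 3 and 0.7 MAC replicates 1 and 2 (adjusted p of 0.0676 to 0.177 for Slc6a5 and 0.0648 to 0.185 for Sv2c), and without CTRL replicate 1 the vesicle genes gave 3 higher and 4 lower. Of 24 neuropeptide precursors and 13 hypothalamic transcription factors 0 passed the exon test with edgeR or DESeq2, with medians of -0.21 and -0.19 (3 higher and 9 lower by unadjusted p under 0.05). In introns 2 of 11 neuropeptide precursors and 0 of 7 hypothalamic factors fell, and 0 rose. Hcrt, the orexin precursor, was 5.41, 6.93 and 6.05 CPM in the controls and 5.43, 3.75 and 2.76 at 0.7 MAC, with overlap (-0.61 ± 0.26, adjusted p = 0.27), and 10.2, 9.85 and 6.35 at 2.0 MAC, higher than at 0.7 MAC by the direct test (1.11, adjusted p = 0.0056). The orexin receptors Hcrtr1 (-0.58, adjusted p = 0.33) and Hcrtr2 (-0.29, adjusted p = 0.49) did not pass the exon test either. In introns Hcrtr2 fell from 24.4, 27.5 and 18.7 to 17.4, 9.95 and 15.8 (-0.70 ± 0.17, adjusted p = 0.028), a call lost without CTRL replicate 1 (adjusted p = 0.0781) or 2 (0.122) or 0.7 MAC replicate 2 (0.0755). Gapdh, a glycolytic enzyme used as a reference, was 127, 111 and 126 CPM in the controls and 123, 112 and 118 at 0.7 MAC (-0.04 ± 0.07, adjusted p = 0.82), and 36 ribosomal protein genes had a median of 0.03 with 0 called by edgeR or DESeq2 (3 higher at an unadjusted p under 0.05). Of 111 genes in 7 further lists (interferon response, nuclear respiratory chain, meninges, microglia, choroid plexus, ependyma and forebrain interneurons) 0 were called in exons by either tool, while 4 of them were higher and 11 lower by unadjusted p under 0.05. In introns 1 of 10 microglial, 1 of 8 choroid plexus and 2 of 7 interneuron genes fell, and 0 genes of these 7 lists rose.

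Several of the largest fold changes belonged to transcripts of other tissue. Cbln3, a cerebellar granule cell protein, was 2.29, 2.05 and 4.87 CPM in the controls and 69.8, 187 and 2.15 at 0.7 MAC, and Fat2, a protocadherin of the same cells, was 9.01, 8.97 and 17.6 against 136, 312 and 8.88. In both genes replicate 3 sat within or below the control range and replicates 1 and 2 were far above it. Pcp2 of Purkinje cells, the adhesion molecule Crtam, Il16, which has a neuronal form, and the myosin-binding protein gene Mybpc1, all among the 12 highest, were likewise highest in replicate 2, next in replicate 1 and lowest in replicate 3 (8.80, 5.29 and 0.613 CPM for Pcp2 and 24.1, 10.2 and 0.460 for Crtam). Without replicates 1 and 2 together the log2 fold changes of Fat2 and Cbln3 were -0.43 and -0.54. Hba-a2, an alpha globin, was 9.33, 9.13 and 1.38 CPM at 0.7 MAC and 0.63 to 1.33 in the controls. Gh, the growth hormone of the pituitary, had 0 reads in every control and 47, 38 and 13 at 0.7 MAC, at least 31.7-fold higher than 3 reads over the control group would give. The calls of Fat2, Cbln3, Pcp2, Crtam, Il16, Mybpc1, Gh and Hba-a2 were lost whenever any 1 of the controls, or of 0.7 MAC replicates 1 and 2, was left out (adjusted p between 0.0519 and 0.195). B3gnt5, a glycosyltransferase (2.60, adjusted p = 0.022), and Mirt1, a noncoding transcript (2.27, adjusted p = 0.025), complete the 12 highest, and both were also highest in replicate 2 (5.87 and 7.66 CPM). Their calls were lost without CTRL replicate 2 (adjusted p = 0.0852 and 0.082), CTRL replicate 3 (0.108 and 0.149) or 0.7 MAC replicate 2 (0.0629 and 0.0852), and that of Mirt1 also without 0.7 MAC replicate 1 (0.088).

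**Figure D4:**
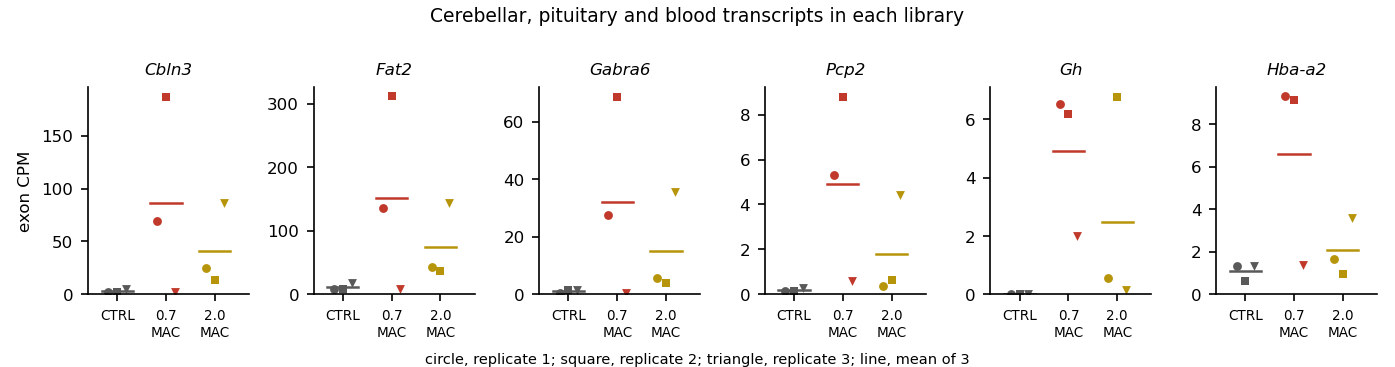
Exon CPM of 4 cerebellar genes (Cbln3, Fat2, Gabra6 and Pcp2), the pituitary gene Gh and the globin Hba-a2 in each of the 9 libraries, with marker shapes for replicates and lines for means of 3. The 0.7 MAC replicates 1 and 2 stood above all controls in each panel, while replicate 3 stood near them in every panel but Gh.

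A few called genes have copies elsewhere in the genome that can share their reads. The part of such sharing in their values was not tested. Fau, a ribosomal fusion protein gene with processed copies, read 15.1, 17.8 and 20.8 CPM in the controls and 56.7, 53.3 and 32.5 at 0.7 MAC (1.40 ± 0.17, adjusted p = 0.00056). The Fau call was kept in every alternative, total gene reads included. The mitochondrial genes mt-Nd3 (2.12, adjusted p = 0.0014) and mt-Co2 (-1.46, adjusted p = 0.016) have nuclear copies, and both lost their calls on total gene reads, where mt-Co2 stood at 0.03. The mt-Co2 call was also lost without CTRL replicate 3 (adjusted p = 0.0623) or 0.7 MAC replicate 1 (0.0755) or 2 (0.0503).

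Across the 15031 genes tested by intron reads, 337 were higher (2.24%) and 479 lower (3.19%) at 0.7 MAC, of which 75 (0.499%) and 44 (0.293%) changed at least 2-fold. The counts were 165 and 254 without CTRL replicate 2, 171 and 283 without 0.7 MAC replicate 1, and 201 and 263 without 0.7 MAC replicate 2. The higher genes numbered 195 without CTRL replicate 1 and 170 without CTRL replicate 3. Without 0.7 MAC replicate 3 they were 550 and 589, and without 0.7 MAC replicates 1 and 2 together 97 and 122. Of the 125 genes upregulated in exons 107 were tested in introns, where 40 were also higher and 1 was lower, with a median intron change of 0.41. Of the 105 downregulated in exons 96 were tested in introns, where 51 were also lower and 0 higher, with a median of -0.43. Exon and intron reads come from the same libraries and are no independent check of each other. Some genes were called in introns and not in exons, of which 3 are named here after their values were seen. Lef1, a Wnt pathway transcription factor, fell from 101, 97.0 and 91.0 to 54.1, 61.1 and 64.1 (-0.69 ± 0.07, adjusted p = 0.0001) and Mecom, a zinc finger factor, from 114, 123 and 122 to 65.6, 71.8 and 66.5 (-0.82 ± 0.09, adjusted p = 0.0001), while Acss2, an acetyl-CoA synthetase, rose from 24.0, 24.2 and 26.2 to 46.0, 40.0 and 39.8 (0.76 ± 0.09, adjusted p = 0.00015). Their exon changes did not pass the test (adjusted p = 0.17, 0.23 and 0.39).

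**Figure D5:**
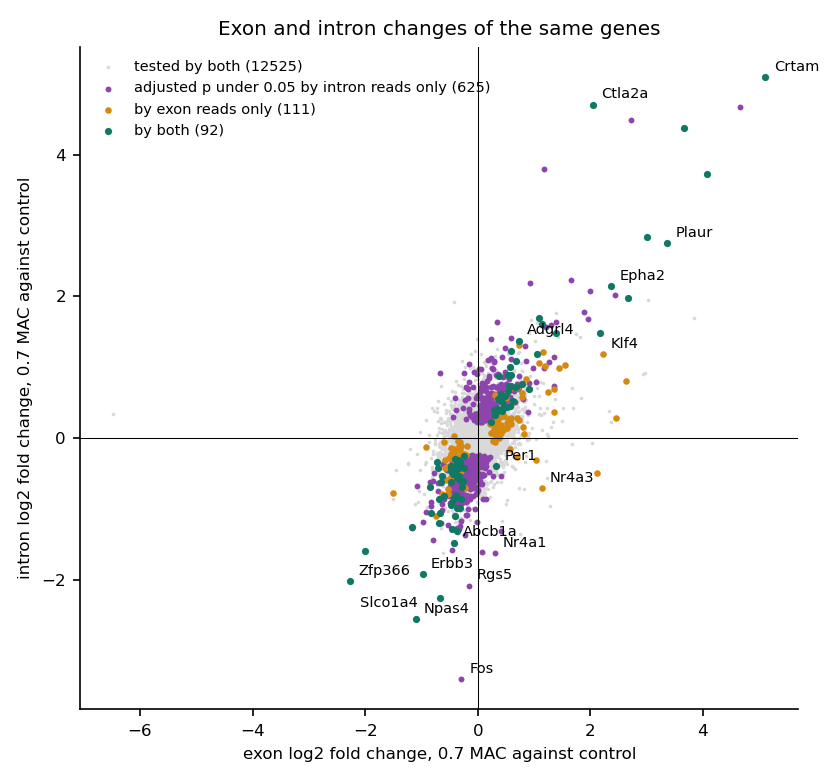
Intron log2 fold change (y axis) against exon log2 fold change (x axis) of 0.7 MAC against control for the 12525 genes tested by both kinds of reads, with genes at an adjusted p under 0.05 by intron reads only in purple, by exon reads only in orange and by both in green. Slco1a4, Rgs5, Nr4a1 and Fos lie lower on the intron axis than on the exon axis, and Plaur and Epha2 rose on both.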

How the data were processed

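Total RNA was depleted of ribosomal RNA, made into strand-keeping libraries and sequenced on a NextSeq 500, and the authors mapped the reads to the mouse genome (GRCm38 and mm10 in the submitters' notes) and counted them in CLC Genomics Workbench. Which annotation release they counted on is not stated in the sources at hand. The deposited table holds, for each of 49585 genes and 9 libraries, whole-number read counts over exons, unique intron read counts, total gene read counts and the authors' RPKM values, as well as the authors' own fold changes and p-values, which were not used. A further 90 columns of per-library values were not used.

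Groups came from the sample titles. Exon counts were filtered with filterByExpr (minimum count 10), scaled by TMM and tested with edgeR 4.0.16 in R 4.3.3 by quasi-likelihood, all 9 libraries in 1 fit, with Benjamini-Hochberg adjustment over 14140 genes, and intron counts likewise over 15031 genes. Errors after ± are standard errors of the log2 fold change. Named genes were the 12 highest and 12 lowest log2 fold changes among called genes whose groups did not overlap and whose mean over the 6 libraries reached 1 CPM, up to 5 members of each list by adjusted p, the first 3 markers of each marker list, and Hcrt, Hcrtr1, Hcrtr2 and Gapdh, and genes outside this rule are said to be named after their values were seen. The comparison and the 43 gene lists were chosen with earlier results of these data known. Alternatives were DESeq2 1.42.0, limma 3.58.1 on log2(RPKM + 0.1) and log2(RPKM + 1), other scalings and filters, robust dispersions, total gene reads, the 6 libraries alone, a replicate block and each library left out. Leaving out 0.7 MAC replicates 1 and 2 together, and the block on intron reads, were chosen after seeing the data. No replicates agreed within sampling noise (chi-square per degree of freedom 1.56 to 5.00). On simulated counts with 200 changed genes, the exon test called 74%, 88%, 96% and 92% of genes changed 1.5-, 2-, 3- and 4-fold, with 9 false among 184 calls over 14140 genes, and the intron test 46%, 94%, 94% and 94%, with 6 false among 170 over 15031 genes. The simulated libraries held no tissue differences such as the cerebellar and blood transcripts of 0.7 MAC replicates 1 and 2. These shares need not hold for the real libraries. Promoter windows came from RefSeq on GRCm38.p6, which held 10750 of the 14140 tested genes.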

Additional observations from a re-analysis of the deposited data

How the results depend on the processing

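Of 75 genes named in the text and called by exon reads, 16 were called in every alternative in which they were tested and 59 were lost in at least 1, and of 45 called by intron reads 28 were called in every such intron alternative. The exon calls lost numbered 13 with DESeq2, 19 with the 6 libraries alone, 18 with robust dispersions, 18 on total gene reads and 45 and 44 with limma at a pseudocount of 0.1 and 1. For genes upregulated at least 2-fold, downregulated at least 2-fold, upregulated at any fold and downregulated at any fold, the counts were 39, 7, 125 and 105. Leaving out 1 library gave 18 to 94, 3 to 11, 30 to 306 and 20 to 224. They became 130, 22, 586 and 327 with no filter on low counts, 16, 4, 27 and 21 with limma on log2(RPKM + 0.1), 5, 0, 27 and 20 with a pseudocount of 1, and 16, 1, 26 and 3 without 0.7 MAC replicates 1 and 2 together. At least 2-fold, a minimum count of 50 left 24 and 2, and total gene reads gave 23 downregulated. At any fold, the 6 libraries alone gave 79 and 58, and total gene reads 229 and 348. DESeq2 called 227 genes, of which 182 were among the 230. Intron counts of 75, 44, 337 and 479 ranged over 48 to 142, 29 to 52, 165 to 550 and 254 to 589 with 1 library left out, fell to 35 and 20 at least 2-fold with a minimum count of 50, and were 34, 26, 97 and 122 without 0.7 MAC replicates 1 and 2 together. The cause of these shifts was not tested, apart from the fewer libraries that some of the fits hold.

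Replicate numbers did not pair the libraries: deviations of same-numbered libraries correlated at -0.22 to 4.7e-06, with 0 of 9 pairs over 0.1. With the replicate block the exon counts at any fold were 46 and 30, and the intron counts were 43 upregulated at least 2-fold and 179 and 313 at any fold, and 36 of the 75 exon calls were lost.

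Exon log2 fold changes turned sign for Nr4a1 (-0.40 on total gene reads), Btg2 (-0.097) and Pecam1 (0.22) on total gene reads, mt-Co2 (0.025 on total gene reads and 0.021 on RPKM with either pseudocount) and Gapdh (0.0091 on total gene reads, 0.015 and 0.014 on RPKM), and without 0.7 MAC replicates 1 and 2 together for Fat2 (-0.43), Cbln3 (-0.54) and Gabra6 (-1.41). With 1 library left out, exon log2 fold changes ran from -0.088 to 0.18 for Btg2 (negative without CTRL replicate 3) and -0.17 to 0.23 for Esam (negative without CTRL replicate 3 or 0.7 MAC replicate 3), and intron log2 fold changes ran from -0.41 to 0.92 for Apold1 (negative without 0.7 MAC replicate 3), -0.093 to 0.33 for Nr4a2 (negative without CTRL replicate 1 or 2 or 0.7 MAC replicate 3), -0.32 to 0.24 for Acta2 (positive without CTRL replicate 1) and -0.49 to 0.051 for Gapdh (positive without CTRL replicate 3). Without 0.7 MAC replicates 1 and 2 together they turned to 0.01 for Fosl2, -0.015 for Dusp1 and -0.46 for Fat2. Of 43 list medians, 34 moved by more than the spread between replicates in at least 1 alternative. Depth limits genes of a few reads, such as Plaur, Gh and the introns of Fos.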

Other observations

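In Ctla2a, a gene named in the report for its exon rise, intron reads numbered 0, 2 and 0 in the controls and 18, 11 and 36 at 0.7 MAC. Intron reads of Plaur went the same way, with 3, 3 and 7 in the controls and 33, 27 and 34 at 0.7 MAC.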
